A study of Homo sapiens with 42 samples.

Results

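The circadian clock genes examined here are PER1, PER2, PER3, CRY1, CRY2, ARNTL (also called BMAL1), CLOCK, NR1D1, NR1D2 and DBP, 10 genes taken by their Ensembl gene identifiers. The m6A peaks that carry one of these identifiers number 118 of the 211410 peaks in 7 lists together. In m6A-seq, sonicated mRNA is enriched with an antibody to N6-methyladenosine (m6A, a mark on messenger RNA) and sequenced (IP) beside RNA that was not enriched (input). The cells were HepG2, a human hepatocellular carcinoma line, and every group carried a lentiviral short hairpin RNA (shRNA) and had been selected with puromycin for stable expression. The first set held knockdowns of METTL3, the methyltransferase that writes most m6A on mRNA, of its partner METTL14, of WTAP, which binds both, and of SETD2, a histone H3 methyltransferase (shRNA #1), with a non-specific control shRNA. A second set held a SETD2 knockdown with shRNA #2 and a non-specific control shRNA of its own, called the second control here. Each condition had 3 input and 3 IP libraries, 42 in all, and the authors joined the 3 replicates of a condition into 1 peak list, so no value below has a replicate error and no test between conditions exists. The labels name no clone, do not say whether replicates were separate cultures, and give no synchronisation of the cells or hour of harvest. The lists give IP relative to input but no transcript level, so neither the strength of knockdown nor a change in clock gene expression could be checked, and hepatocyte markers were not checked because the lists name genes by identifier only.

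The mammalian clock is a loop of transcription and translation. CLOCK and ARNTL bind E-boxes and switch on the PER and CRY genes, whose proteins return to repress CLOCK and ARNTL. The nuclear receptors NR1D1 and NR1D2 (REV-ERB alpha and beta) form a second loop in which they repress ARNTL, and DBP, itself switched on through E-boxes, carries the rhythm to output genes through D-boxes. In liver this loop times bile acid, lipid and glucose metabolism. In cultured cells, lowering METTL3 has been reported to lengthen the period of the clock.

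Some of these E-boxes and D-boxes can be read in the promoters of the genes themselves. RefSeq promoter sequences (GRCh38.p14, from 250 bases before to 50 after a transcript start) were found for all 10 genes, 15 promoters in all. Of these 15, 2 hold the E-box CACGTG and 5 the variant CACGTT, against 7.26% and 5.34% of all 35116 promoters, with both strands searched. The D-box, searched as TTATGTAA and TTACGTAA on both strands, was in 3 of the 15 and in 1.01% of all. These motifs share no base with each other in the 15 promoters, and a match describes letters, not binding. The windows below, each in the strand of its gene and wholly before the start, show the E-box of PER1 (chr17:8152547-8152602, minus strand), 1 of the 2 E-boxes of NR1D2 (chr3:23945941-23945996, plus strand), the variant of PER2 (chr2:238288777-238288832, minus strand) and the D-box of PER3 (chr1:7784089-7784146, plus strand), with the motif in capitals.
PER1: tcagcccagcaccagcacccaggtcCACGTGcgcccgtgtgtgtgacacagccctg
NR1D2: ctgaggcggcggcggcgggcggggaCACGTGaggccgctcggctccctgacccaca
PER2: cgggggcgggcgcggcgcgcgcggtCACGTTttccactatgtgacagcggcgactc
PER3: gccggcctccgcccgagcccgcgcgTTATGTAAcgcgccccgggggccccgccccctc
The m6A peaks themselves are given in hg19 coordinates, and their sequence was not analysed here.

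Of the 10 clock genes, 9 carried an m6A peak in at least 1 list, and ARNTL carried none in any of the 7. Peaks of PER1, PER2, PER3, CRY1, CRY2, NR1D1, NR1D2 and DBP were present in all 7 lists, and peaks of CLOCK in the WTAP and control lists only. The METTL3 list held 16 clock gene peaks of 30352, the METTL14 list 14 of 28841, the WTAP list 20 of 29392 and the SETD2 #1 list 15 of 28645, against 24 of 33672 in the control list. The SETD2 #2 list held 16 of 29259, against 13 of 31249 in the second control. All 4 first set knockdown lists are thus shorter than the control list as a whole. By their median these peaks were weakly supported, though not all were weak. In the control list 11 of the 24 had a p-value of at most 1e-05, beside 24475 of all 33672 peaks. The median log10 p of IP against input, as the authors' peak caller gave it, was -4.63 for the clock gene peaks of the control list and -11.8 for all its 33672 peaks, and -4.17 and -10.7 in the second control. The clock median also stood nearer to 0 than the median of the whole list in each of the 5 knockdown lists. The authors' fold enrichment (IP divided by input, not on a log scale) had a median of 6.43 for clock gene peaks and 6.79 for all peaks in the control list, and 2.88 and 4.33 in the second control.

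Joining clock gene peaks wherever their blocks shared a base on the same strand gave 27 sites, numbered here from 5′ to 3′ within each gene. PER1 and CRY2 had 6 sites each, PER2 had 4, CRY1 had 1, and PER3, CLOCK, NR1D1, NR1D2 and DBP had 2 each. A peak was found in all 7 lists at 7 of these sites: PER1 site 5, PER2 site 4, PER3 site 1, CRY1 site 1, NR1D1 site 1, NR1D2 site 1 and DBP site 2. At 5 sites only 1 list had a peak. Of the 27 sites, 12 had peaks in both sets, 13 only in the first set, which joins 5 lists, and 2 only in the second, which joins 2. Of the 24 control peaks, 10 (41.7%, exact 95% interval 22.1 to 63.4%) had no overlapping peak in either list of the second set, beside 23.5% of all control peaks. The dot plot of sites by list shows this arrangement.

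**Figure D1:**
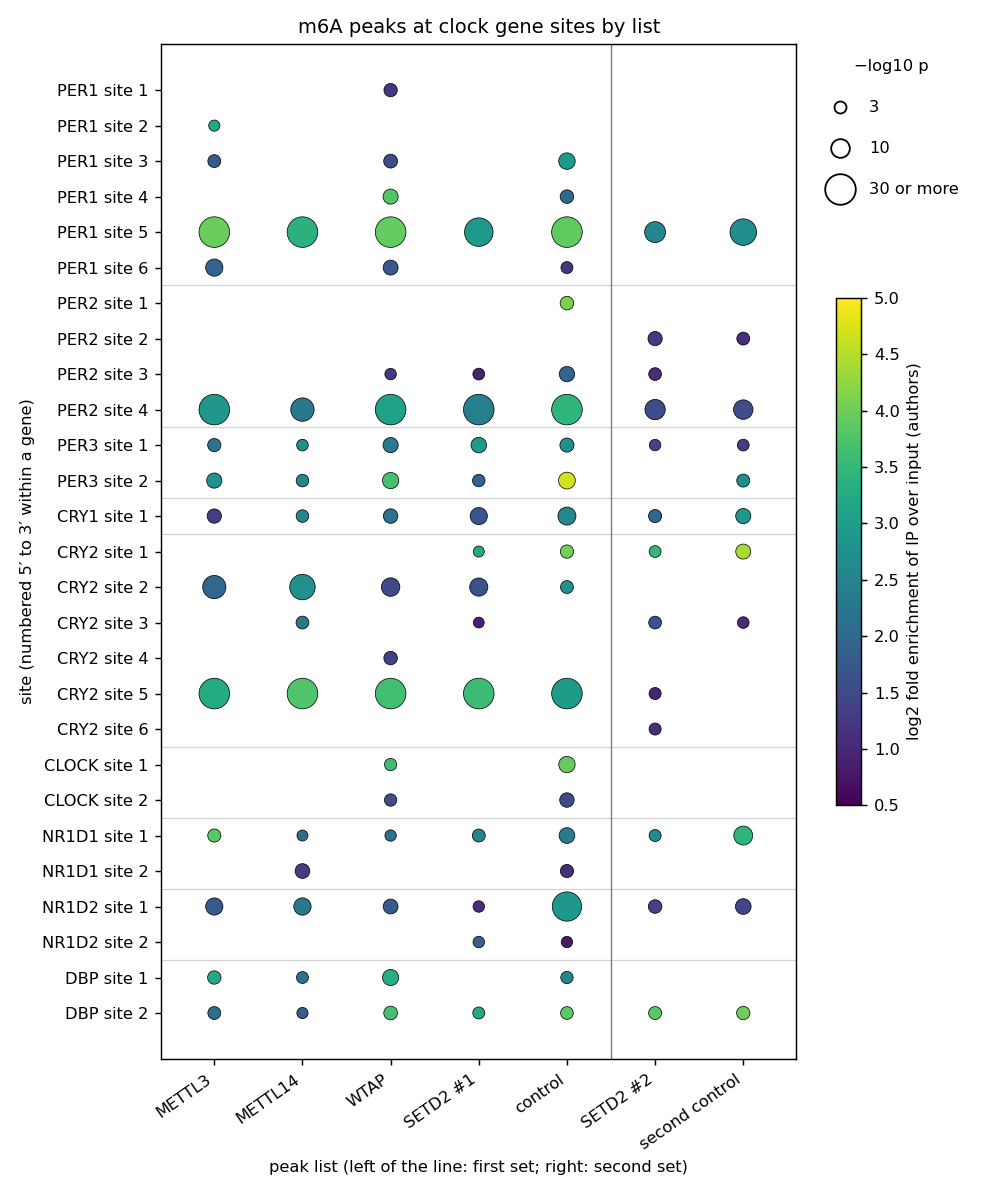
Clock gene sites (rows, numbered 5′ to 3′ within a gene) in the 7 peak lists (columns, with the second set right of the vertical line). A dot marks a called peak, its area the −log10 p (capped at 30) and its colour the log2 of the authors' fold enrichment, both for the best supported peak of the site. Rows of 7 dots are the 7 sites found in all lists.

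The PER genes encode the repressor subunits that accumulate with CRY. PER1 (ENSG00000179094, chromosome 17, minus strand) carried the best supported peak of the 3. Its site 5, from 8044149 to 8045391 (2 blocks in every list), had a log10 p of -95.7 in the METTL3, -95.5 in the WTAP, -33.5 in the METTL14 and -25.8 in the SETD2 #1 list, against -70.5 in the control. The fold enrichment there was 15.7 in the METTL3, 15.1 in the WTAP, 10.4 in the METTL14 and 7.59 in the SETD2 #1 list, against 15 in the control. In the second set it was 6.02 with a log10 p of -13.0 in the SETD2 #2 list, against 6.45 and -22.1 in the second control. The peak was thus called under every knockdown, with METTL3 and WTAP next to the control in fold and METTL14 and SETD2 #1 lower.

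The other PER1 sites separated the lists further. Site 3 (8047022 to 8047469) had a fold enrichment of 3.35 in the METTL3 and 2.92 in the WTAP list, against 7.71 in the control, and no peak in the METTL14, SETD2 #1 and both second set lists. Site 6, the 3′-most (8043820 to 8044059), was called in the same 3 lists, with 3.84 in METTL3 and 3.35 in WTAP, against 2.33 in the control. Site 4 (8045994 to 8046843) was called in the WTAP list with 13.8 and in the control with 4.07. Sites 1 and 2 had a peak each, of 2.33-fold in the WTAP and 9.13-fold in the METTL3 list. PER1 thus had 5 peaks in WTAP, 4 in METTL3, 1 in METTL14 and 1 in SETD2 #1, against 4 in the control, and 1 in SETD2 #2, against 1 in the second control. In the METTL14 and SETD2 #1 lists PER1 had a peak only at site 5, the site that all 7 lists have.

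PER2 (ENSG00000132326, chromosome 2, minus strand) had its leading site at the 3′ end of the row of sites, from 239160309 to 239162296. The METTL3 and SETD2 #1 lists covered it with 1 peak of 748 bases, against 1 of 838 bases in the control. The METTL14 and WTAP lists broke it into 2 peaks each, of 300 and 120 bases in METTL14 and of 360 and 180 bases in WTAP. So did the second set, with 270 and 150 bases in SETD2 #2, against 91 and 240 bases in the second control. The best log10 p at the site was -50.4 in METTL3, -33.9 in WTAP, -16.7 in METTL14 and -31.3 in SETD2 #1, against -46.5 in the control. It was -12.1 in SETD2 #2, against -11.0 in the second control. Site 1 (239186493 to 239197065, 2 blocks) was called with 17.1-fold enrichment in the control and in no other list, at a log10 p of -4.37. Site 3 (239164429 to 239166957) was a peak of 90 bases in WTAP (2.33-fold) and SETD2 #1 (1.91-fold) and was not called in METTL3 or METTL14, against 330 bases and 3.86-fold in the control. It was called over 91 bases in SETD2 #2 (2.14-fold), against no peak in the second control. Site 2 (239184418 to 239186433) was called only in the second set, and the SETD2 #2 peak there shared a single base with that of the second control.

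PER3 (ENSG00000049246, chromosome 1, plus strand) had 2 sites, from 7844887 to 7845532 and from 7887246 to 7887546. Site 1 was called in all 7 lists, with a fold enrichment of 4.67 in METTL3, 5.07 in WTAP, 6.41 in METTL14 and 7.87 in SETD2 #1, against 6.64 in the control. In the second set it was 2.68 in SETD2 #2, against 2.45 in the second control, and these last peaks share a single base. At site 2 it was 6.98 in METTL3, 12.7 in WTAP, 5.90 in METTL14 and 3.71 in SETD2 #1, against 25.7 in the control. That control value is the highest fold enrichment of the 118 clock gene peaks, though its log10 p was -7.72. Site 2 was not called in SETD2 #2, against 6.62 in the second control, where its log10 p was -3.87.

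The cryptochromes CRY1 and CRY2 are the strongest repressors of CLOCK and ARNTL. CRY1 (ENSG00000008405, chromosome 12, minus strand) had a single site from 107486828 to 107487607, covered by 1 to 3 peaks per list. The METTL14 list had 1 peak of 121 bases (5.90-fold) and the WTAP list 1 of 180 bases (4.57-fold). METTL3 had 3 peaks of 151 to 211 bases between 2.44-fold and 3.30-fold, and SETD2 #1 had 2 of 181 bases each, of 3.21-fold and 3.65-fold. The control had a peak of 451 bases (6.10-fold) and one of 181 bases (5.71-fold). In the second set, SETD2 #2 had peaks of 180 bases (3.96-fold) and 151 bases (5-fold), against 1 of 420 bases (7.45-fold) in the second control. In each of the 5 knockdown lists the widest peak of the site was narrower than that of its control.

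CRY2 (ENSG00000121671, chromosome 11, plus strand) behaved differently at its 5′ and 3′ sites. Site 1, the 5′-most, from 45869033 to 45869182, was called in SETD2 #1 with a fold enrichment of 9.44, against 16.3 in the control, and in SETD2 #2 with 11.2, against 21.4 in the second control. It was not called in METTL3, METTL14 or WTAP. Such a pattern, with a peak in both SETD2 lists and both controls and none in METTL3, METTL14 or WTAP, was shown by 1 of the 24 clock gene peaks of the control (4.17%, 0.105 to 21.1%), this one, beside 1.65% of all control peaks. Its log10 p was -2.22 in SETD2 #1, against -4.12 in the control, and -2.89 in SETD2 #2, against -5.78 in the second control. Only the second control peak there passes a p-value of 1e-05.

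Further 3′, CRY2 peaks of the first set knockdowns had log10 p values farther from 0 than those of the control. Site 5 (45892357 to 45902583, 3 blocks of up to 390 bases together) had a log10 p of -75.9 in METTL3, -112 in WTAP, -95.1 in METTL14 and -107 in SETD2 #1, against -38.4 in the control. The fold enrichment was 9.48 in METTL3, 12.4 in WTAP, 13.6 in METTL14 and 11.8 in SETD2 #1, against 7.87 in the control. In the second set the site was a peak of 91 bases with 1.92-fold enrichment in SETD2 #2, and the second control had none. Site 2 (45880364 to 45882767) had a log10 p of -16.4 in METTL3, -9.73 in WTAP, -20.2 in METTL14 and -9.32 in SETD2 #1, against -3.79 in the control, and no peak in the second set. Its fold enrichment did not follow the p-values, at 3.90 in METTL3, 2.86 in WTAP, 6.64 in METTL14 and 3.15 in SETD2 #1, against 6.57 in the control. The peaks of site 2 cover partly different stretches. The control peak starts at 45882458 and the 4 knockdown peaks between 45880364 and 45880424. Each knockdown peak shares 121 to 151 bases with the control peak. The 4 knockdowns share 1 control. Read depth and the level of the CRY2 transcript, on which such p-values also depend, are not in these lists.

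Site 3 (45883545 to 45889004) was called in METTL14 (4.88-fold) and SETD2 #1 (1.86-fold) and not in the control, and in SETD2 #2 (3.12-fold) as in the second control (2.11-fold). The METTL14 and SETD2 #1 peaks there share no base and are joined only through the longer peaks of the second set. Site 4 had 1 peak in WTAP (2.60-fold) and site 6, the 3′-most, 1 in SETD2 #2 (2.14-fold). The block map of CRY2 and PER1 shows both genes.

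**Figure D2:**
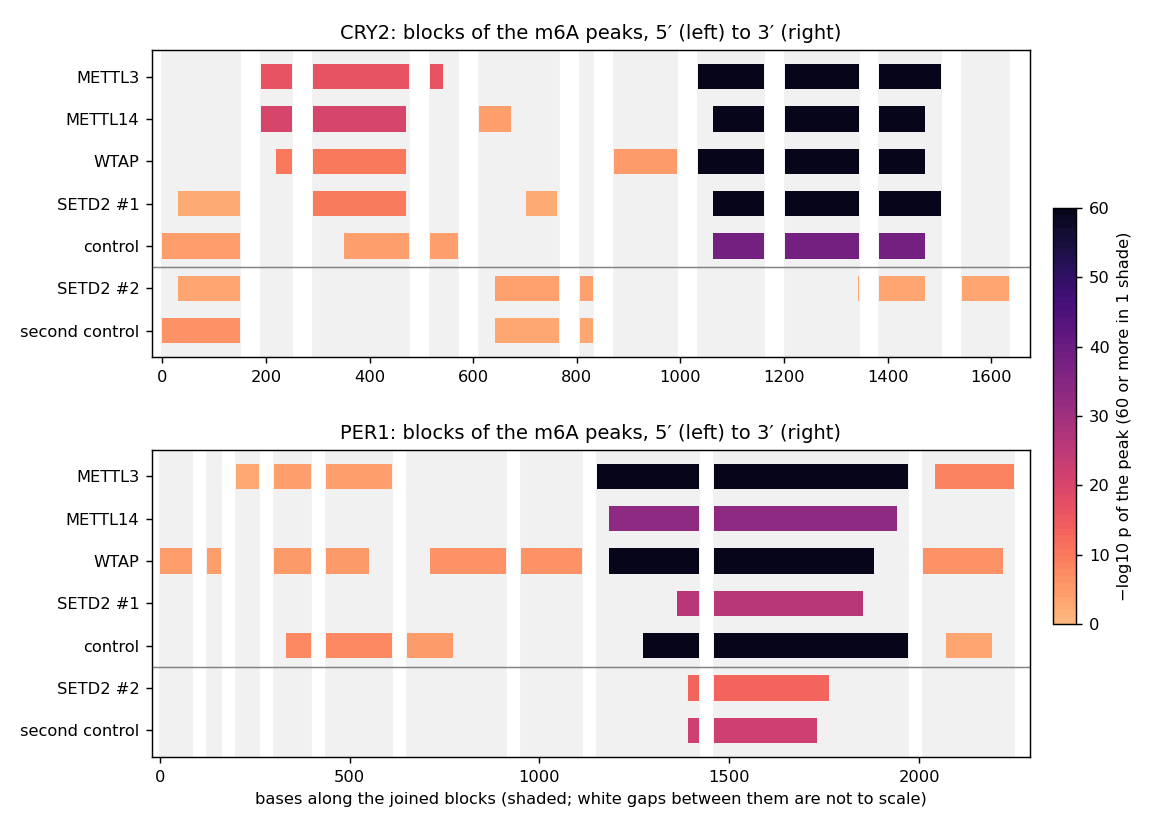
Blocks of the m6A peaks of CRY2 (top) and PER1 (bottom) in the 7 lists, drawn 5′ to 3′ along the joined blocks in bases, with white gaps not to scale and the colour giving −log10 p. The 3 blocks of CRY2 site 5 are dark in the first set and almost missing in the second, while CRY2 site 1 at the left edge is empty in METTL3, METTL14 and WTAP.

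The activators gave the sparsest signal. ARNTL (ENSG00000133794), the partner of CLOCK, had no peak in any list. CLOCK (ENSG00000134852, chromosome 4, minus strand), which also has histone acetyltransferase activity, had a site from 56412061 to 56412820 and another from 56301462 to 56301671. At site 1 the fold enrichment was 12.1 in WTAP, against 15.4 in the control, with a log10 p of -3.24 in WTAP, against -7.23 in the control. At site 2 it was 2.92 in WTAP, against 2.87 in the control, over 60 bases in WTAP, against 210 bases in the control. METTL3, METTL14, SETD2 #1, SETD2 #2 and the second control had no CLOCK peak. CLOCK was the only clock gene with a control peak that had none left in a first set knockdown, 1 of 9 in METTL3, METTL14 and SETD2 #1 each and 0 of 9 in WTAP, which allows a share of up to 33.3%. Among all genes with a control peak this share was 12.9% for METTL3, 16.6% for WTAP, 18.0% for METTL14 and 15.1% for SETD2 #1, so 1 gene of 9 is near the background. The second control lacked CLOCK too (1 of 9), beside 13.4% of all genes with a control peak. SETD2 #2 lacked 0 of the 8 clock genes with a second control peak, which allows a share of up to 37.5%, beside 10.5% of all genes.

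The heme-binding receptors NR1D1 and NR1D2 repress ARNTL in the second loop. NR1D1 (ENSG00000126368, chromosome 17, minus strand) had a 5′ site from 38256591 to 38256978 whose 5′ edge was the same base in all 7 lists. The peak there was 61 bases wide in METTL3, METTL14 and WTAP and 120 bases in SETD2 #1, against 388 bases in the control, and 180 bases in SETD2 #2, as in the second control. The fold enrichment was 14.2 in METTL3, 4.60 in WTAP, 4.27 in METTL14 and 5.77 in SETD2 #1, against 5.14 in the control, and 6.25 in SETD2 #2, against 10.7 in the second control. The log10 p stood nearer to 0 in each knockdown than in its control, at -2.20 to -3.96 in the first set, against -6.50 in the control, and at -3.01 in SETD2 #2, against -10.3 in the second control. Site 2 (38249398 to 38250205) was called in METTL14 with 2.46-fold enrichment and in the control with 2.12-fold.

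NR1D2 (ENSG00000174738, chromosome 3, plus strand) had its main site from 24003470 to 24004748. Its peak was 421 bases wide in METTL3, 361 in WTAP, 301 in METTL14 and 61 in SETD2 #1, against 631 in the control. The fold enrichment was 3.37 in METTL3, 3.39 in WTAP, 5.02 in METTL14 and 2.11 in SETD2 #1, against 7.45 in the control. The log10 p was -8.21 in METTL3, -5.60 in WTAP, -8.30 in METTL14 and -2.59 in SETD2 #1, against -27.4 in the control. All 4 first set knockdowns were thus narrower, less enriched and less well supported than the control at this site. In the second set the fold stood the other way, as SETD2 #2 had peaks of 2.60-fold and 5.94-fold, against 2.05-fold and 2.69-fold in the second control. The SETD2 #2 peaks were 91 and 301 bases wide, against 121 and 241 bases in the second control. The best log10 p was nearer to 0 in SETD2 #2, at -4.37, against -6.47 in the second control. The second control peaks, from a non-specific shRNA, were themselves narrower, less enriched and less well supported than the control peak of the first set. Site 2 (24018810 to 24018900) had a peak of 61 bases in SETD2 #1 (3.78-fold) and in the control (1.77-fold).

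DBP (ENSG00000105516), a bZIP factor that binds D-boxes and is an output of the loop, lies on chromosome 19 on the minus strand. Site 1 (49139113 to 49140307) had a fold enrichment of 9.13 in METTL3, 4.42 in METTL14 and 9.75 in WTAP, against 6 in the control, and no peak in SETD2 #1, SETD2 #2 or the second control. It covered 330 bases in METTL3 and 270 bases in METTL14 and in WTAP, against 121 bases in the control. Site 2 (49138247 to 49138665) was called in all 7 lists. Each first set knockdown had 1 peak there, of 4.23-fold in METTL3, 12.7-fold in WTAP, 3.42-fold in METTL14 and 9.44-fold in SETD2 #1, and the control had 3, of 14.6-fold, 6.29-fold and 4.86-fold. It was 14.4-fold in SETD2 #2, against 16.0-fold in the second control. No DBP peak in any list had a log10 p beyond -6.95.

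**Figure D3:**
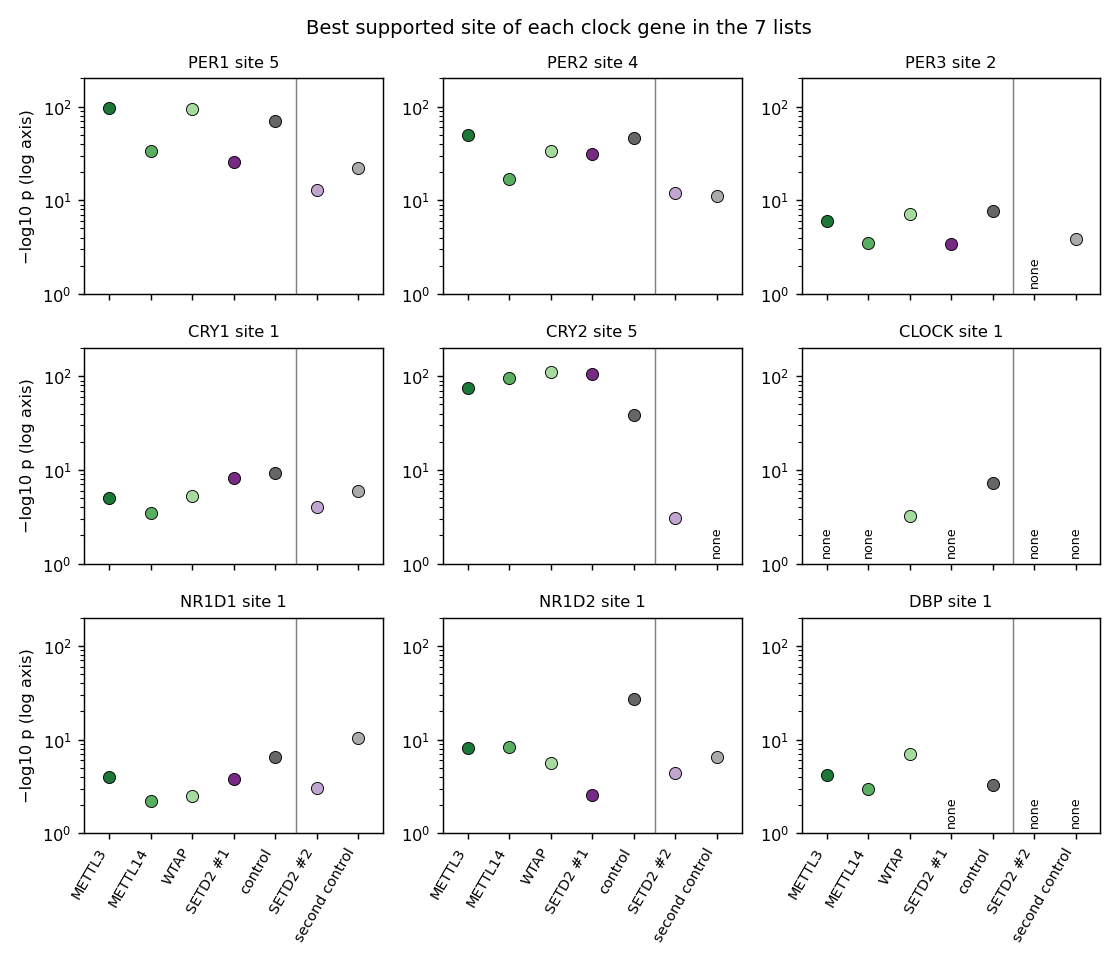
The −log10 p (log axis) of the best supported peak at the best supported site of each clock gene, in the first set and, right of the line, the second set; "none" marks a list without a peak there. The site of a gene was picked as the one with the largest −log10 p in any list, so from the values plotted. CRY2 site 5 stands higher in the 4 first set knockdowns than in the control, NR1D2 site 1 lower, and PER1 site 5 on both sides of it.

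The losses over all clock gene peaks were counted as control peaks with no base in common with a peak of the knockdown list on the same strand. Of the 24 control peaks, 9 (37.5%, exact 95% interval 18.8 to 59.4%) were absent from METTL3, where 22.8% of all control peaks were absent. From METTL14, 12 were absent (50%, 29.1 to 70.9%), against 29.8% of all. From WTAP, 7 were absent (29.2%, 12.6 to 51.1%), against 28.8% of all. From SETD2 #1, 10 were absent (41.7%, 22.1 to 63.4%), against 27.0% of all. Each of these 4 intervals includes the share over all peaks. With some stricter settings the intervals of METTL14 and SETD2 #1 lay above it, and with others they included it. When overlap had to reach 50% of each peak, METTL14 lacked 18 of 24 (75.0%, 53.3 to 90.2%), against 45.2% of all, and SETD2 #1 lacked 15 of 24 (62.5%, 40.6 to 81.2%), against 38.9%. The second control, which carried a non-specific shRNA, lacked more than either at that setting. It lacked 22 of 24 (91.7%, 73.0 to 99.0%), against 45.2% of all. In the shorter lists, whose peaks all reach a fold of 2 and a p-value of 1e-05 or lower, METTL14 and SETD2 #1 each lacked 7 of 11 (63.6%, 30.8 to 89.1%), against 29.3% of all for METTL14 and 26.2% for SETD2 #1. With an FDR of at most 1e-05 in both lists SETD2 #1 lacked 6 of 10 (60.0%, 26.2 to 87.8%), against 25.3%. The intervals cover counting error only, and peaks of 1 gene share a transcript and are not independent. Of the 13 second control peaks, 1 was absent from SETD2 #2 (7.69%, 0.195 to 36.0%), the one at PER3 site 2, against 20.5% of all second control peaks. Of the 12 present, 3 shared a single base with SETD2 #2. The result turned round in the shorter lists, where 5 of 6 were absent (83.3%, 35.9 to 99.6%), against 22.2% of all. It did so too at an FDR of at most 1e-05, where 4 of 5 were absent (80.0%, 28.4 to 99.5%), against 21.4%. Both settings also limit the SETD2 #2 list, whose shorter form held 3 of its 16 clock gene peaks. In the full SETD2 #2 list, second control peaks with a p-value of at most 1e-05 were not lost in this way. Of 6 such clock gene peaks, 0 were absent there (interval up to 45.9%), against 8.3% of all.

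As many control peaks were missing from the second control as from METTL14. Of the 24, 12 (50%, 29.1 to 70.9%) were absent from the second control, against 28.6% of all control peaks, which lies just under that interval. Of the 13 second control peaks, 2 (15.4%) were absent from the control, those at PER2 site 2 and CRY2 site 3, against 15.6% of all. The knockdowns of METTL3, METTL14, WTAP and SETD2 #1 share 1 control list, so their losses are not separate evidence. What sets SETD2 #2 apart from SETD2 #1 cannot be told apart from what sets the second set apart from the first.

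Absent peaks were found among both weakly and well supported control peaks. Of the 13 clock gene peaks of the control with a p-value above 1e-05, METTL3 lacked 6 (46.2%), METTL14 lacked 8 (61.5%), WTAP 7 (53.8%) and SETD2 #1 7 (53.8%), where 58.6%, 63.4%, 61.7% and 66.1% of all control peaks of that kind were absent from these 4 lists in the same order, so that none of these shares was above that of all weak peaks. Of the 11 with a p-value of at most 1e-05, METTL3 lacked 3 (27.3%, 6.02 to 61%), METTL14 lacked 4 (36.4%, 10.9 to 69.2%) and SETD2 #1 lacked 3 (27.3%, 6.02 to 61%), against 9.36%, 17.2% and 12.3% of all such control peaks. WTAP lacked 0 of the 11, which allows a share of up to 27.3%, against 16.4% of all. The second control lacked 5 of the 11 (45.5%, 16.7 to 76.6%), against 15.5% of all, which lies just under that interval. It lacked 7 of the 13 (53.8%), against 63.3% of all. The peaks at CLOCK sites 1 and 2 were among those absent from METTL3, METTL14 and SETD2 #1. The peak at PER2 site 3 was the other one absent from METTL3, and that at PER1 site 3 the other one absent from SETD2 #1. METTL14 lacked both.

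**Figure D4:**
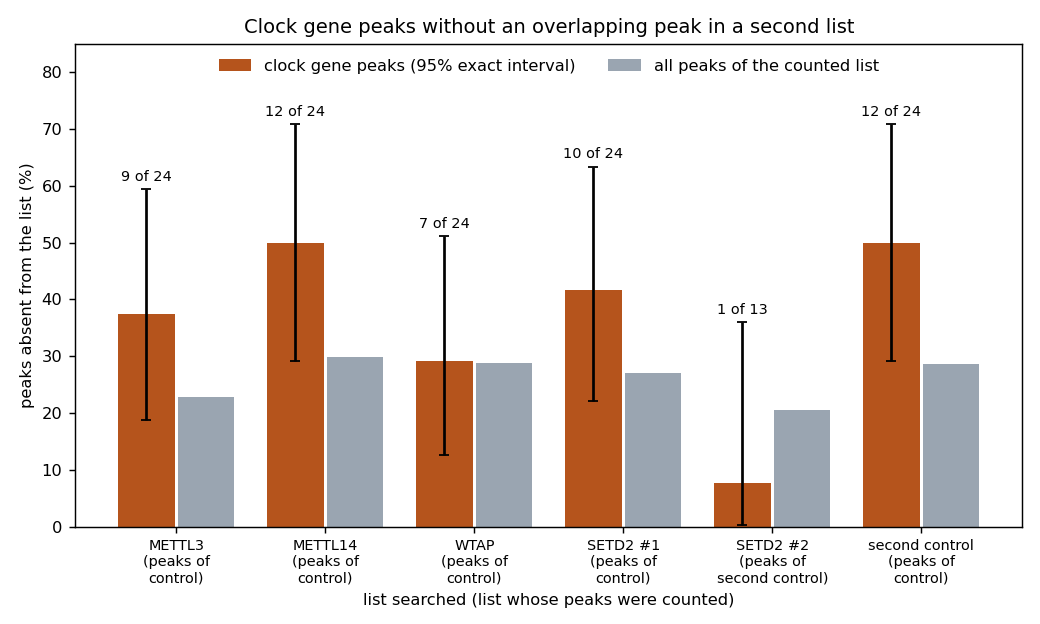
Share of peaks (%) of a counted list without an overlapping peak in the list named below, for clock gene peaks (left bars, with exact 95% intervals and counts) and for all peaks (right bars). The clock bars for METTL14 and for the second control both stand at 50%, and the bar for SETD2 #2 at 7.69%.

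Gains were counted in the other direction. In WTAP 2 of 20 peaks (10.0%, 1.23 to 31.7%) had no overlapping control peak, beside 13.5% of all its peaks. In METTL3 it was 1 of 16 (6.25%, 0.158 to 30.2%), beside 10.6%. In METTL14 it was 1 of 14 (7.14%, 0.181 to 33.9%), beside 12.7%, and in SETD2 #1 1 of 15 (6.67%, 0.169 to 31.9%), beside 8.07%. The gained peaks were PER1 site 2 for METTL3, CRY2 site 3 for METTL14 and SETD2 #1, and PER1 site 1 and CRY2 site 4 for WTAP. SETD2 #2 had 3 of 16 peaks (18.8%, 4.05 to 45.6%) absent from the second control, beside 14.5% of all, at PER2 site 3 and CRY2 sites 5 and 6. Each of these intervals includes the share over all peaks. Every gain had a p-value above 1e-05.

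Of the 24 control peaks, 7 (29.2%, 12.6 to 51.1%) overlapped a peak in each of the other 6 lists, beside 45.7% of all control peaks. They lay in PER1, PER2, PER3, CRY1, NR1D1, NR1D2 and DBP, 1 peak in each. CRY2 and CLOCK had none. Among peaks matched 1 to 1 with the control, 9 of 16 were narrower in WTAP, 6 of 12 in METTL3, 6 of 11 in METTL14 and 7 of 11 in SETD2 #1, beside 62.2%, 56.7%, 62.4% and 64.9% of all matched peaks. Wider than the control were 6 of 16 in WTAP, 6 of 12 in METTL3, 4 of 11 in METTL14 and 2 of 11 in SETD2 #1, beside 21.7%, 23.5%, 21.9% and 16.8% of all. Against the second control, 5 of 11 were narrower and 4 wider in SETD2 #2, beside 44.1% and 33.4% of all.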

How the data were processed

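Peak lists of m6A-seq from 42 libraries of HepG2 cells (7 conditions, each with 3 input and 3 IP libraries) were analysed. The genome build was hg19, and TopHat2 2.1.1 and FastQC 0.11.5 had been used, per the submitters' processing notes. Per the labels' file descriptions, exomePeak lists join replicates 1 to 3; neither its version nor the annotation is stated there. Per the file headers, the deposited values of a peak are a p-value of IP against input, its log10 and the log10 of the FDR (both at or under 0, recorded as score values), and a fold enrichment, which is a ratio. Fold and p-value are the authors' own values of each peak; they are set side by side and were not tested between lists, whose depth is unknown. A shorter deposited list held exactly the peaks whose fold reached 2 and whose p-value was 1e-05 or lower.

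Repeated regions were counted once (11 to 21 rows per list removed). Overlap was computed with bedtools 2.31.1 in Python 3.11.15, asking for at least 1 shared base of the blocks on the same strand, and was tested on simulated data. Shares have exact Clopper-Pearson 95% intervals (scipy 1.17.1), and a count of 0 allows 3 counts. Counts of peaks with a p-value above 1e-05, and of peaks absent or present in several lists at once, were added after seeing the data. The members and lists were chosen with earlier results of these data known; all 10 genes are named. Other clock pathway genes and hepatocyte markers, also planned, were not analysed here, since the tables used do not pair their symbols with the identifiers.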

Additional observations from a re-analysis of the deposited data

How the results depend on the processing

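No paired analysis was possible because each list joins replicates 1 to 3, and for the same reason no leave-one-out values exist. Whole peak spans gave the same count of absent clock gene peaks in all 12 comparisons of lists and among peaks shared by all lists. When overlap had to reach 50% of each peak, absence moved to 58.3% for WTAP (14 of 24, beside 43.8% of all peaks), 75.0% for METTL14 (18 of 24, beside 45.2%), 46.2% for SETD2 #2 (6 of 13, beside 31.9%) and 91.7% for the second control (22 of 24, beside 45.2%). Gains under that setting were 31.2% for METTL3 (5 of 16, beside 27.9% of all), 50% for WTAP (10 of 20, beside 35.6%), 57.1% for METTL14 (8 of 14, beside 35.9%), 40% for SETD2 #1 (6 of 15, beside 28.1%), 56.2% for SETD2 #2 (9 of 16, beside 27.2%) and 84.6% for the second control (11 of 13, beside 40.8%). None of the 24 control peaks (0%) was then shared by all lists. In like terms, 24 of 24 were not shared, beside 73.5% of all control peaks (24740 of 33672). With an FDR of at most 1e-05 in both lists, absence was 60.0% for WTAP (6 of 10, beside 27.0%) and 80.0% for SETD2 #2 (4 of 5, beside 21.4%). Gains were then 37.5% for WTAP (3 of 8, beside 13.1%), 33.3% for SETD2 #1 (2 of 6, beside 6.17%), 50% for SETD2 #2 (1 of 2, beside 9.86%) and 0% for the second control (0 of 5, beside 14.4%). The lists then held 7 clock gene peaks in METTL3, 5 in METTL14, 8 in WTAP, 6 in SETD2 #1, 10 in the control, 2 in SETD2 #2 and 5 in the second control. With fold of at least 3 they held 13 in WTAP, 8 in SETD2 #2 and 6 in the second control, whose gains were 0% (0 of 6, beside 14.7%). In the shorter lists, absence was 63.6% for SETD2 #1 (7 of 11, beside 26.2%) and 83.3% for SETD2 #2 (5 of 6, beside 22.2%). Gains were 41.7% for WTAP (5 of 12, beside 13.5%), 33.3% for SETD2 #1 (2 of 6, beside 6.82%) and 66.7% for SETD2 #2 (2 of 3, beside 11.7%). These lists held 8, 6, 12, 6 and 11 clock gene peaks in METTL3, METTL14, WTAP, SETD2 #1 and control, and 3 and 6 in SETD2 #2 and second control. Among peaks with a p-value of at most 1e-05 searched in the full other list, absence was 0% for WTAP (0 of 11, beside 16.4%) and SETD2 #2 (0 of 6, beside 8.30%). Gains were then 0% of 3 to 12 clock gene peaks for METTL3, METTL14, WTAP, SETD2 #1, SETD2 #2 and the second control, beside 2.62% to 9.08% of all. Limits on both lists leave fewer peaks in each, and why the shares moved was not tested. Without such limits, absence from SETD2 #2 was 7.69% for clock gene peaks, beside 20.5% of all second control peaks. Depth is unknown and limits weak peaks, and 3 second control peaks (at PER2 site 2, PER3 site 1 and NR1D2 site 1) met SETD2 #2 at a single base.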
